A study of Bos taurus with 12 samples.

Results

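The genes described here encode the enzymes that remove superoxide, peroxides and reactive electrophiles in the bovine endometrium, the inner lining of the uterus. They were taken by symbol from the annotation of the array: glutathione peroxidases, peroxiredoxins, superoxide dismutases, catalase, thioredoxins and their reductases, the enzymes that make and recycle glutathione, the haem oxygenases, NQO1, SRXN1 and the glutathione transferases. This gave 49 of the 17767 named genes on the array, carried by 148 probes and 56 of 26323 transcripts. The rule uses no measured value.

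Superoxide dismutases convert superoxide into hydrogen peroxide. Catalase, the glutathione peroxidases and the peroxiredoxins then reduce that peroxide, the peroxidases drawing electrons from glutathione or thioredoxin, which GSR and the thioredoxin reductases return to their reduced state. Glutathione transferases join glutathione to electrophilic compounds, and in the uterus these enzymes are found in epithelium, stroma and vessels alike.

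Endometrial biopsies were taken from the intercaruncular tissue of the uterine horn on the side of the corpus luteum on day 15 of the oestrous cycle, and RNA was hybridised to 1-colour Agilent arrays, 1 cow per array. Old females (OF, 13 to 14 years, nulliparous, n = 4) were compared with young females (YF, 4 to 5 years, primiparous, n = 4), so age and parity cannot be told apart. Per the study's methods, the OF and YF were Holstein clones of a single donor cow. The labels call 4 more cows contemporary (CP here) without giving their age, parity or origin, and cow 1111 among them was left out by the authors for a divergent phenotype, which leaves 3. Nothing in the labels names a treatment in any group. The study's methods state that the oestrous cycles of the OF and YF were synchronised hormonally by the Crestar method. The 12 arrays lay on 2 slides: slide 1 held 1 OF, 2 YF and cow 1111, and slide 2 the other 3 OF, 2 YF and 3 CP.

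Levels are log2 of the processed intensity minus the 75th percentile of the same array, averaged over the probes of a transcript. A level of 0 is the brightness of a probe at that percentile, and levels are not comparable between genes because probes differ in brightness. Where a gene had several transcripts, the value of the transcript with the highest mean level is given unless another is named. Of the 56 transcripts, 49 were well above background on all 12 arrays, and 53 transcripts of 46 genes could be tested in each comparison. GPX6, GSTA5 and SRXN1 were not tested. GSTA5 was well above background on no array.

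Some biopsies differed in the RNA levels of cell type markers. All 11 epithelial and all 6 ciliated cell markers were well above background on all 12 arrays. The mean level of 11 smooth muscle markers was 4.56 in OF 2258 and 2.88 in OF 0234, against -1.03 to 0.57 in the other 10 cows. OF 2258 also had the lowest mean level of epithelial markers, -0.63 against 0.14 to 2.14, and of ciliated cell markers, -5.90 against -3.93 to -0.87. In bulk biopsies, fewer cells of a type and less RNA per cell cannot be told apart.

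The first comparison set OF against YF, which differ in age and parity together. No transcript of these enzymes passed an unadjusted p of 0.05 in limma, a linear model with moderated variances, and none had OF and YF groups that did not overlap. Among all 19755 transcripts tested, 2.42% passed that p and 1.53% had groups that did not overlap. After Benjamini-Hochberg adjustment in limma no transcript of the whole array passed, the lowest adjusted p being 0.667, and the lowest among the antioxidant enzymes was 0.999. The transcripts split into 23 higher and 30 lower in OF, with a median log2 difference of -0.02 against 0.01 over all transcripts. The median size of the difference was 0.23, against 0.15 over all transcripts. Differences ran from -1.62 to 0.74, and 51 of 53 were smaller than 1. The 95% interval of a difference had a median width of 1.23, so differences well below 1 were not detectable for most of these genes.

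**Figure D1:**
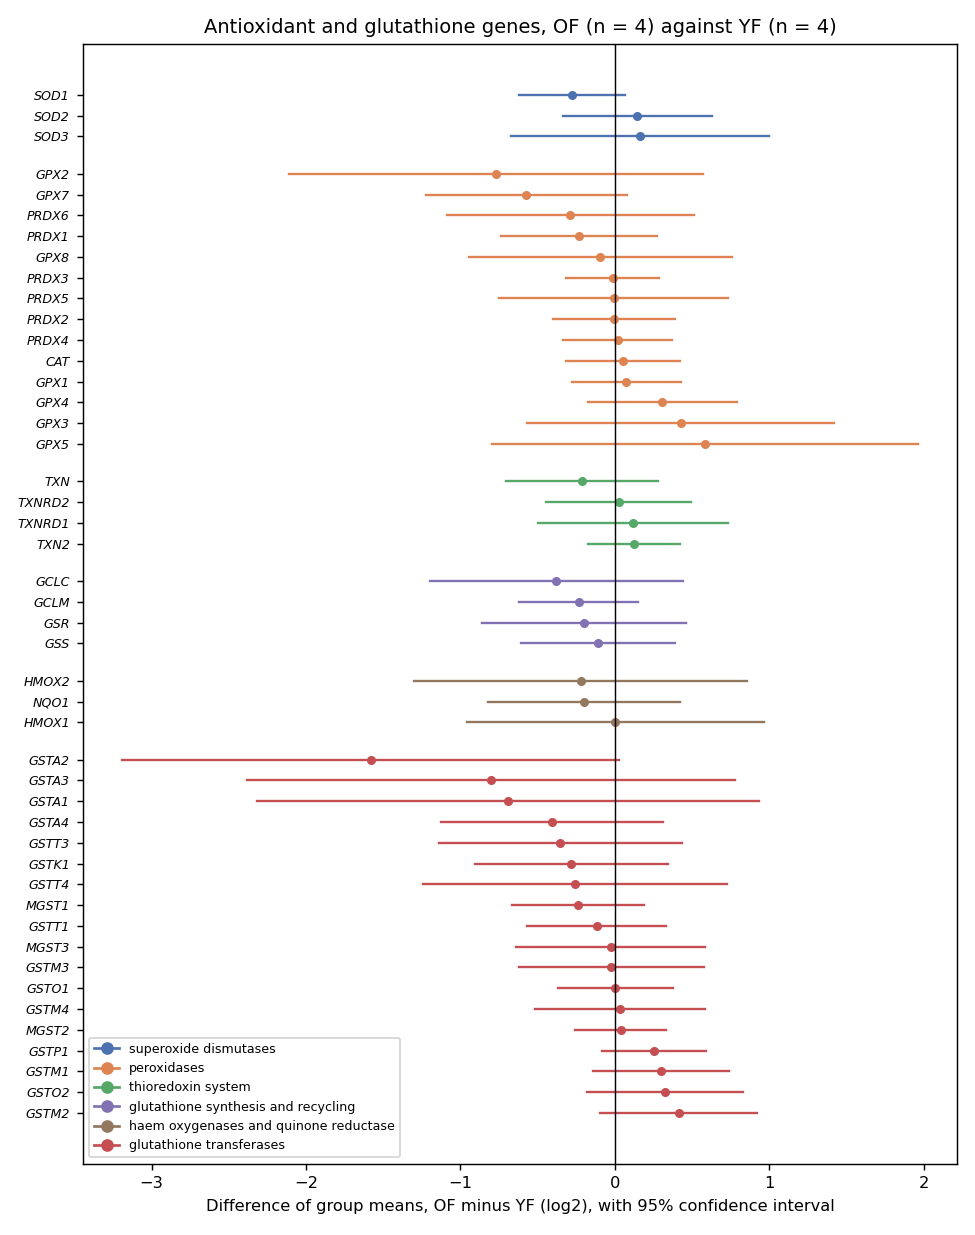
Difference of the group means, OF minus YF, on the log2 scale (x axis) for the 46 tested genes (y axis, grouped by enzyme role in colour), with 95% confidence intervals, 4 cows in each group. Every interval includes 0, and GSTA2 lies farthest from it at -1.58.

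Of the superoxide dismutases, SOD1, the copper-zinc enzyme of the cytosol, had levels of 3.01, 3.17, 3.15 and 2.87 in OF 0233, 0234, 0245 and 2258. In YF 1069, 1070, 1072 and 1127 it had levels of 3.53, 3.18, 3.12 and 3.47. YF 1069 and 1127 stood well above every OF, YF 1070 lay just above the highest OF, and YF 1072 lay among the OF, so the groups overlapped. The OF mean was 3.05 ± 0.14 (SD, n = 4) and the YF mean 3.33 ± 0.20 (SD, n = 4), a log2 difference of -0.28 with a 95% interval of -0.62 to 0.07 and an unadjusted limma p of 0.102 (exact two-sided permutation p = 0.114). Within slide 2 the difference was -0.48 and within slide 1 it was 0.00. SOD2, the mitochondrial manganese enzyme, differed by 0.14 (-0.34 to 0.63), and SOD3, the secreted enzyme, by 0.17 (standard error 0.37). The SOD3 value averages 2 probes of opposite sign. The probe well above background on 12 arrays gave -0.13, and the one well above background on 0 arrays gave 0.46.

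Among the peroxidases, 7 transcripts were higher and 8 lower in OF, with a median difference of -0.01. Catalase, which decomposes hydrogen peroxide in peroxisomes, was nearly level: 2.20 ± 0.10 in OF and 2.15 ± 0.26 in YF (both SD over 4 cows), a difference of 0.05 with an interval of -0.32 to 0.42. GPX1, the cytosolic glutathione peroxidase, differed by 0.08 (-0.28 to 0.43). For both genes the interval leaves out a doubling or halving of the level. GPX3, the secreted form, differed by 0.43 (-0.57 to 1.42).

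GPX7, a peroxidase of the endoplasmic reticulum that takes part in protein folding, had the lowest p of the peroxidases. Its levels were -0.56, -0.18, -0.75 and -0.13 in OF 0233, 0234, 0245 and 2258, and 0.97, 0.07, -0.20 and -0.16 in YF 1069, 1070, 1072 and 1127. YF 1069 alone stood far above the rest, and YF 1072 and 1127 lay among the OF. The difference was -0.57 (SE 0.28, interval -1.22 to 0.08, unadjusted limma p = 0.0767, exact two-sided permutation p = 0.143). With slide as a block it was -0.69 with an unadjusted limma p of 0.0339. It was -0.69 within slide 1, which held 1 OF, and within slide 2, which held YF 1069. Over all alternatives run it lay between -0.695 and -0.283. The group medians of GPX7 were -0.37 in OF and -0.04 in YF, closer together than the means.

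GPX2, a glutathione peroxidase of epithelia, had levels of -4.30, -4.88, -4.58 and -6.56 in OF 0233, 0234, 0245 and 2258. In YF 1069, 1070, 1072 and 1127 they were -5.60, -3.73, -4.28 and -3.65. OF 2258 and YF 1069, the cows with the lowest epithelial marker levels, were also lowest for GPX2. The difference was -0.77 (-2.11 to 0.57, unadjusted limma p = 0.225, exact permutation p = 0.314), and without OF 2258 it was -0.27. Whether the epithelial share of the biopsies had a part in it was not tested.

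GPX5, a glutathione peroxidase best known from the epididymis, was low on this array and varied widely. Its levels were -4.33, -4.55, -3.39 and -6.43 in the OF, and -5.77, -5.07, -5.68 and -4.51 in the YF, in the same order of cows. OF 2258 was the lowest and OF 0245 the highest of the 8, so the OF enclosed all YF. The difference was 0.58 (-0.80 to 1.96), and without OF 2258 it was 1.17 with an unadjusted limma p of 0.0172. Both GPX5 transcripts share 1 of their 60-base probes, and the other probes match at 50 of 51 aligned bases, so their values are not separate evidence. The stretches below show how close they are, with the differing base in capitals.
GPX5 ENSBTAT00000045182: ggctttcccttctcaaccCtagaaccctta
GPX5 ENSBTAT00000063536: ggctttcccttctcaaccGtagaaccctta

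The peroxiredoxins, thiol peroxidases served by thioredoxin, differed little. Of 6 transcripts 1 was higher and 5 were lower in OF, with a median of -0.01 and a range of -0.29 to 0.02. PRDX6, which reduces phospholipid hydroperoxides with glutathione, was the lowest at -0.29 (-1.09 to 0.51), and PRDX1 of the cytosol stood at -0.23 (-0.73 to 0.28). GPX4, which reduces lipid hydroperoxides in membranes, differed by 0.31 (-0.17 to 0.79), but 1 of its 2 probes was well above background on 0 arrays and the annotated span is 568 bases long. That probe gave a difference of 0.595, while the probe well above background on 12 arrays gave 0.02.

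In the thioredoxin system 4 transcripts were higher and 1 lower in OF, with a median of 0.11. TXN, cytosolic thioredoxin, differed by -0.21 (-0.70 to 0.28) and TXN2, its mitochondrial counterpart, by 0.12 (-0.18 to 0.42). TXNRD1, the selenoprotein that reduces thioredoxin in the cytosol, differed by 0.12 (-0.50 to 0.73), and its 2 transcripts share both probes. TXNRD2, the mitochondrial reductase, stood at 0.02 (-0.45 to 0.49).

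All 4 genes of glutathione synthesis and recycling were lower in OF on average, with a median of -0.22, and none of them passed the test. GCLC, the catalytic subunit of the rate-limiting ligase, differed by -0.38 (-1.20 to 0.44). GCLM, its modifier subunit, differed by -0.23 (-0.62 to 0.15). GSR, which reduces oxidised glutathione, differed by -0.20 (-0.86 to 0.46), and GSS, which completes the tripeptide, by -0.11 (-0.60 to 0.39). YF 1070 and OF 0234 marked the ends of the GCLC range in these 8 cows, at -4.61 and -6.37.

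HMOX1, the inducible haem oxygenase, had a mean of 3.04 in OF and 3.04 in YF, a difference of 0.00 with an interval of -0.96 to 0.96. Its levels spread from 2.35 in YF 1127 to 3.91 in YF 1069 and OF 2258. NQO1, a quinone reductase that is a classic target of NRF2, differed by -0.20 (-0.82 to 0.42). HMOX2, the constitutive haem oxygenase, differed by -0.22 in its brighter transcript and -0.24 in the other.

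The glutathione transferases held the widest differences, 9 higher and 13 lower in OF with a median of -0.07. All 5 tested transcripts of the alpha class, which conjugate electrophiles and reduce lipid peroxides in epithelia, were lower in OF on average, with a median of -0.80. Of the 6 mu-class transcripts 5 were higher, with a median of 0.30, and all 3 theta-class transcripts were lower. None of these transcripts passed an unadjusted p of 0.05 in limma. Probes of 1 class can cross-react between near-identical genes, and the annotation itself differs here: the entry with the symbol GSTA1 carries a GSTA3 description and the GSTM4 entry a GSTM1 description.

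GSTA2 showed the widest difference. Its 2 transcripts at chromosome 23, 24823643 to 24837430 in UMD3.1, are read by 4 different probes, of which the middle 30 bases are given because these are the probes on which the value rests.
GSTA2 ENSBTAT00000046354: aatcacggacaagattatcttgtgggcaac
GSTA2 ENSBTAT00000046354, second probe: aggattttcaggattaaataaagcaggcag
GSTA2 ENSBTAT00000008605: attagaatgcagatttagttgcaaaacaat
GSTA2 ENSBTAT00000008605, second probe: gctcagatcaaagagagaacaacaaaccgt

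The GSTA2 levels were -3.40, -3.93, -2.98 and -5.73 in OF 0233, 0234, 0245 and 2258, and -3.65, -1.28, -3.07 and -1.72 in YF 1069, 1070, 1072 and 1127. YF 1070 and 1127 stood above every OF, YF 1069 and 1072 lay among the OF, and OF 2258 lay far below all others. The means were -4.01 ± 1.21 in OF and -2.43 ± 1.11 in YF, both with SD over 4 cows. The difference of -1.58 had a standard error of 0.70, a 95% interval of -3.19 to 0.03, an unadjusted limma p of 0.0531 and an exact two-sided permutation p of 0.143, while the smallest p that 4 against 4 allows is 0.0286. The second transcript, well above background on 11 arrays only, gave -1.62 and was lowest in OF 2258, at -6.91. The 4 probes gave -1.42 to -1.75. The difference was -1.01 without OF 2258, -1.92 without OF 0245 and -1.99 without YF 1069, with unadjusted limma p of 0.118, 0.0337 and 0.025. Within slide 1 it was -0.81 and within slide 2 it was -1.67.

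Among the OF and YF, the cows at the ends of the GSTA2 range were also at the ends for ciliated cell markers, but the order between differed. The cows with the highest ciliated marker levels among the OF and YF, YF 1127 and YF 1070, had the highest GSTA2, and OF 2258 had the lowest of both. YF 1072 had the next lowest ciliated mean, -3.93, but its GSTA2 of -3.07 lay above OF 0233 and OF 0234, with ciliated means of -2.91 and -2.80. Over all 12 cows GSTA2 was highest in CP 1128, at -0.78, whose ciliated mean of -1.22 was below the -0.87 of YF 1127. All 6 ciliated markers were lower in OF on average, with a median of -0.91, as were 8 of 11 epithelial markers, with a median of -0.25. The summed level of the ciliated markers ran from -3.04 to 0.58 in OF and from -1.17 to 2.03 in YF, and none of the 6 was at background. Their part in the GSTA2 difference was not tested.

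**Figure D2:**
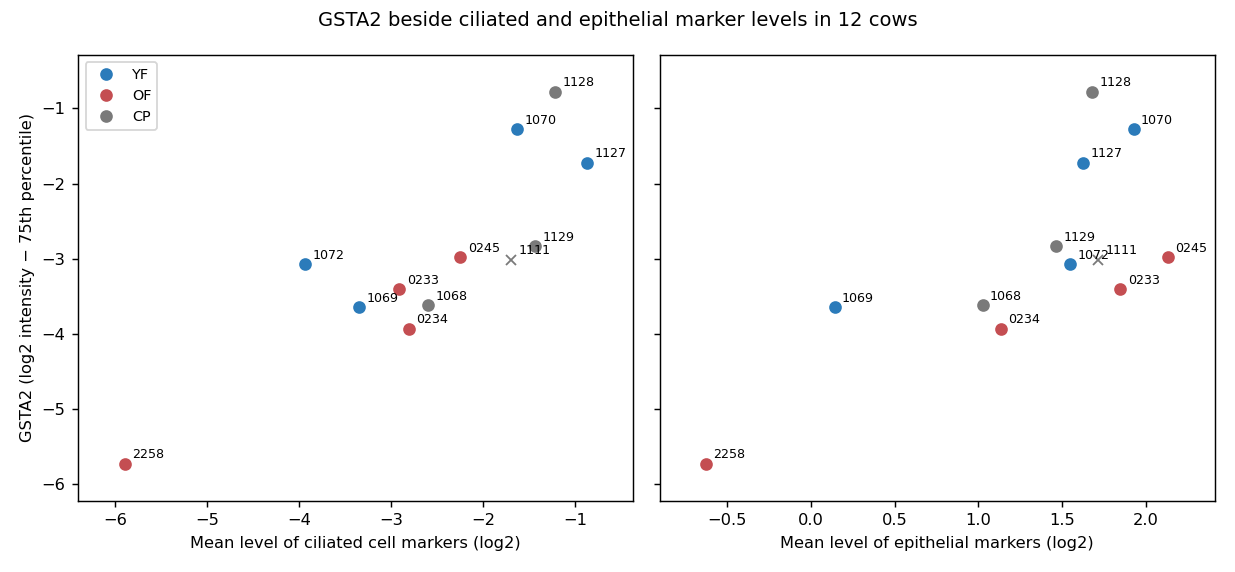
GSTA2 level (y axis, log2 intensity minus the 75th percentile) against the mean log2 level of 6 ciliated cell markers (left) and 11 epithelial markers (right), 1 point for each of 12 cows with its number, OF red, YF blue, CP grey and cow 1111 as a cross. OF 2258 is lowest on both axes of both panels, at -5.73 for GSTA2.

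The other alpha-class genes followed with smaller values. GSTA3, linked to the synthesis of steroid hormones, differed by -0.80 (-2.38 to 0.78), GSTA1 by -0.69 (-2.32 to 0.93) and GSTA4, which detoxifies lipid peroxidation products, by -0.41 (-1.12 to 0.31). OF 2258 had the lowest level of all 12 cows for GSTA1, at -4.91, and for GSTA3, at -7.22. GSTA3 was well above background on 11 arrays only. GSTA4 was highest in YF 1069, at 3.93 against 2.36 to 3.21 in the 7 others.

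In the mu class GSTM2 had levels of 1.03, 1.96, 1.40 and 1.65 in OF 0233, 0234, 0245 and 2258, and of 1.31, 0.95, 0.84 and 1.27 in YF 1069, 1070, 1072 and 1127. OF 0234 and 2258, the cows with the most smooth muscle marker RNA, were highest, and OF 0233 lay among the YF. In CP 1068, 1128 and 1129 GSTM2 was at 1.12, 1.61 and 1.51. Their mean smooth muscle marker levels were 0.10, -0.44 and -0.25, so CP 1128 and 1129 came near OF 2258 without high marker levels. The difference was 0.41 (-0.10 to 0.92, unadjusted limma p = 0.0983, exact permutation p = 0.114). Among the OF and YF, OF 0234 and 2258 were also highest for the 2 brighter GSTM1 transcripts, which differed by 0.29 and 0.30. For the first of these, CP 1128 at 0.05 and CP 1129 at 0.01 lay above OF 2258 at -0.07. The summed level of 11 smooth muscle markers ran from 4.69 to 10.05 in OF and from 4.61 to 6.07 in YF, and its part was not tested.

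GSTP1, the pi-class enzyme abundant in many epithelia, differed by 0.25 (-0.08 to 0.59), and MGST2, a microsomal enzyme that also makes leukotriene C4, by 0.04 (-0.26 to 0.33). GSTO1, an omega-class enzyme with thioltransferase activity, differed by 0.00 (-0.37 to 0.37) between OF and YF. Its neighbour GSTO2 differed by 0.33 in 1 transcript and by -0.63 in the other, although both carry the same 2 probe sequences, of which 1 was well above background on 11 arrays and the other on at most 1.

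The study's own kind of test, a rank-based fold-change method (FCROS) recomputed here, called 4 of the 56 transcripts, or 7.14%, against 4.94% of all 26323. Called were both transcripts of GSTA2, 3.00-fold and 2.97-fold lower in OF, GPX2, 1.66-fold lower, and GPX7, 1.55-fold lower. The threshold was an f-value within 0.025 of either end with a fold change of at least 1.5. Because FCROS ranks fold changes, the share of all transcripts that it calls is nearly fixed by its construction. A call is therefore not a test against the spread between cows. For the same 4 transcripts the limma intervals included 0.

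The contemporary cows share the OF and YF arrays as references, so both comparisons that follow are not independent of the one above. Against YF, 0 of 53 transcripts passed an unadjusted p of 0.05 in limma, where 3.03% of 19993 did, and 29 were higher and 24 lower in CP. The median difference was 0.02, against -0.02 over all transcripts. The groups did not overlap for 1 gene, GSTP1, while 3.83% of all transcripts had such groups. GSTP1 was at 3.86, 3.82 and 3.75 in CP 1068, 1128 and 1129 and from 3.36 to 3.60 in the 4 YF, a difference of 0.31 (-0.02 to 0.64, unadjusted limma p = 0.065, exact permutation p = 0.0571, the smallest that 3 against 4 allows). GSTA2 differed by 0.02 (-1.81 to 1.85), GPX7 by 0.00 (-0.69 to 0.68) and SOD1 by 0.11 (-0.28 to 0.50). NQO1 stood at -0.38 (-0.87 to 0.10).

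Against OF, 3 transcripts passed an unadjusted p of 0.05 in limma, GPX7, GSTT4 and SOD1, all higher in CP. That is 5.66% of the 53, close to the 4.57% of all 19914 transcripts, and the lowest adjusted p was 0.912. The groups did not overlap for GPX7, SOD1 and GCLM, again 5.66%, against 5.79% over all transcripts. Of the 53 transcripts 37 were higher and 16 lower, with a median of 0.06, while the median of all transcripts was -0.04. All 8 glutathione peroxidase transcripts were higher in CP, with a median of 0.11, and all 5 alpha-class transferases, with a median of 0.78.

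GPX7 was at 0.33, 0.08 and 0.09 in CP 1068, 1128 and 1129, above the highest OF at -0.13. The difference was 0.57 (0.09 to 1.05, unadjusted limma p = 0.0264, exact permutation p = 0.0571), or 1.48-fold. SOD1 was at 3.53, 3.42 and 3.35 in the same cows, above the highest OF at 3.17, a difference of 0.39 (0.02 to 0.75, unadjusted limma p = 0.0394, exact permutation p = 0.0571), or 1.31-fold. Within slide 2 alone, where 3 OF lay, GPX7 differed by 0.45 with an unadjusted limma p of 0.0588 and SOD1 by 0.42 with 0.0486. Leaving out CP 1068, CP 1128, OF 0233 or OF 0245 raised the p of GPX7 to between 0.0507 and 0.0832, and leaving out CP 1068, CP 1128, OF 0233, OF 0234 or OF 2258 raised that of SOD1 to between 0.059 and 0.102. With all 3 groups in 1 fit the unadjusted limma p of GPX7 was 0.0686, and that of SOD1 was 0.0547 with median centring and 0.096 with the brightest probe. GCLM was at -3.07, -2.82 and -2.69, and its lowest CP value lay just above the highest OF, so that the difference was 0.42 (-0.01 to 0.84). All 10 stromal fibroblast markers were higher in CP than in OF, with a median of 0.50, and all 6 ciliated markers, with a median of 1.85. All 11 smooth muscle markers were lower in CP, with a median of -1.99, and their summed level ran from 4.88 to 5.63 in CP against 4.69 to 10.05 in OF. Of 9 tested leukocyte and macrophage markers 8 were higher in CP, with a median of 0.28. Of 5 tested erythroid markers 2 were higher and 3 lower in CP, with a median of -0.001. The haemoglobin gene HBB was among the higher, by 2.11 (unadjusted limma p = 0.00593, exact permutation p = 0.0571) with groups that did not overlap. The part of these markers in the differences was not tested.

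**Figure D3:**
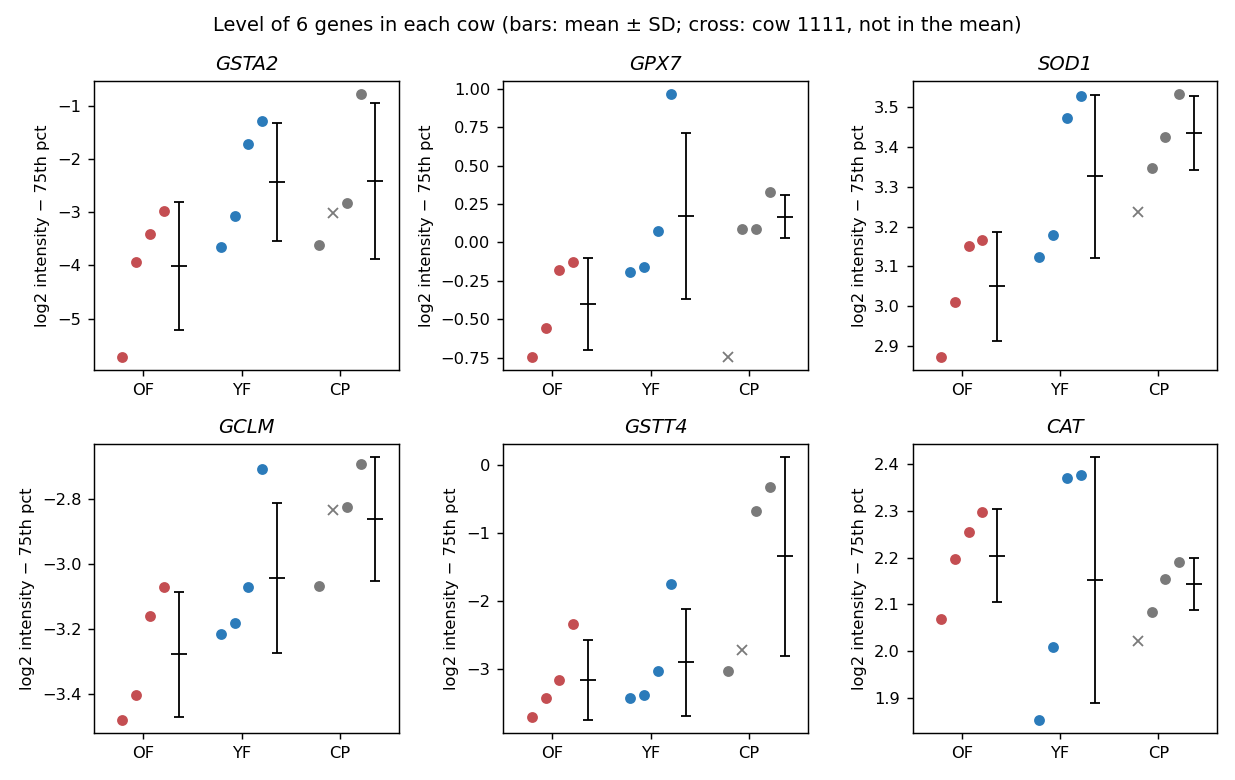
Level of 6 genes in each cow (y axis, log2 intensity minus the 75th percentile, with its own scale in each panel) for OF, YF and CP; points are cows, bars are the mean ± SD, and the cross is cow 1111, which is not in the mean. For GPX7 and SOD1 the 3 CP lie above all 4 OF, and for CAT the groups overlap.

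GSTT4, a theta-class transferase, differed by 1.82 between CP and OF (0.27 to 3.37, unadjusted limma p = 0.0274, exact permutation p = 0.114), or 3.53-fold, and by 1.56 between CP and YF (-0.05 to 3.17). It was at -0.32 in CP 1068 and -0.68 in CP 1129 but at -3.03 in CP 1128, and at -3.72, -2.34, -3.16 and -3.43 in OF 0233, 0234, 0245 and 2258. CP 1128 thus lay among the OF, and the groups overlapped. In YF it was at -1.75 in YF 1069 and between -3.44 and -3.03 in the others. Both probes, whose middle 30 bases follow, gave the contrast of CP with OF, 1.75 and 1.89.
GSTT4 ENSBTAT00000000195: agggagacgctgaaattcactgcttctttg
GSTT4 ENSBTAT00000000195, second probe: cactggacccgatggtcaaggagaggatct

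The GSTT4 difference between CP and OF was 2.66 without CP 1128, with an unadjusted limma p of 0.000418, and 1.31 and 1.49 without CP 1068 or CP 1129, with p of 0.106 and 0.101. With slide as a block, which leaves the cows of slide 2 to decide the contrast, it was 1.82 and no longer passed, with an unadjusted limma p of 0.0523. It did not pass without OF 0233, OF 0245 or OF 2258 either, with p of 0.0666, 0.0524 and 0.0515. When the arrays were weighted by their quality it was 0.39, and with cow 1111 included it was 1.48 with p of 0.05003. Its neighbours GSTT1 and GSTT3 on chromosome 17 differed by 0.01 and 0.07 between CP and OF, so the high values of CP 1068 and CP 1129 were not seen in them.

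GSTO1 and GSTO2 stood apart in a single cow. GSTO1 was at -2.31 in CP 1129, 2.37 below the next cow, and between 0.06 and 1.61 in the 11 others. GSTO2 was at -8.03 in the same cow against -6.15 to -4.89 in the others, and its second transcript at -8.89 against -6.26 to -4.43. GSTO2 was not well above background in CP 1129, so its levels there are only upper limits. Cow 1111 had the next lowest level of all 3 transcripts. The low value of GSTO1 was present in both of its probes, -2.25 and -2.36, whose middle bases are shown first below with those of GSTO2.
GSTO1 ENSBTAT00000006245: ctacttgcagaacaaccctgaggcttatga
GSTO1 ENSBTAT00000006245, second probe: acatagctgatactttccttcactaatatg
GSTO2 ENSBTAT00000005211: gccatgaagcaggatcccacagtctgttct
GSTO2 ENSBTAT00000005211, second probe: actttacaaagcatccttttggccaaattc

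In UMD3.1 the genes lie side by side, GSTO1 at chromosome 26, 25088448 to 25097722, and GSTO2 at 25103430 to 25119670. Just before them 2 unnamed transcripts, starting at 25060219 and 25060238, were also lowest in CP 1129, at -2.39 each, against -1.42 to -0.39 and -1.70 to -0.61 in the other cows. SFR1 and CFAP43 on one side and ITPRIP on the other lay within the range of the other cows. CP 1129 was at least 2 below all other cows in 34 of 18773 transcripts, with GSTO1 and GSTO2 among them. With this cow GSTO1 differed by -0.74 between CP and OF, and without it by 0.52 with an unadjusted limma p of 0.0335.

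**Figure D4:**
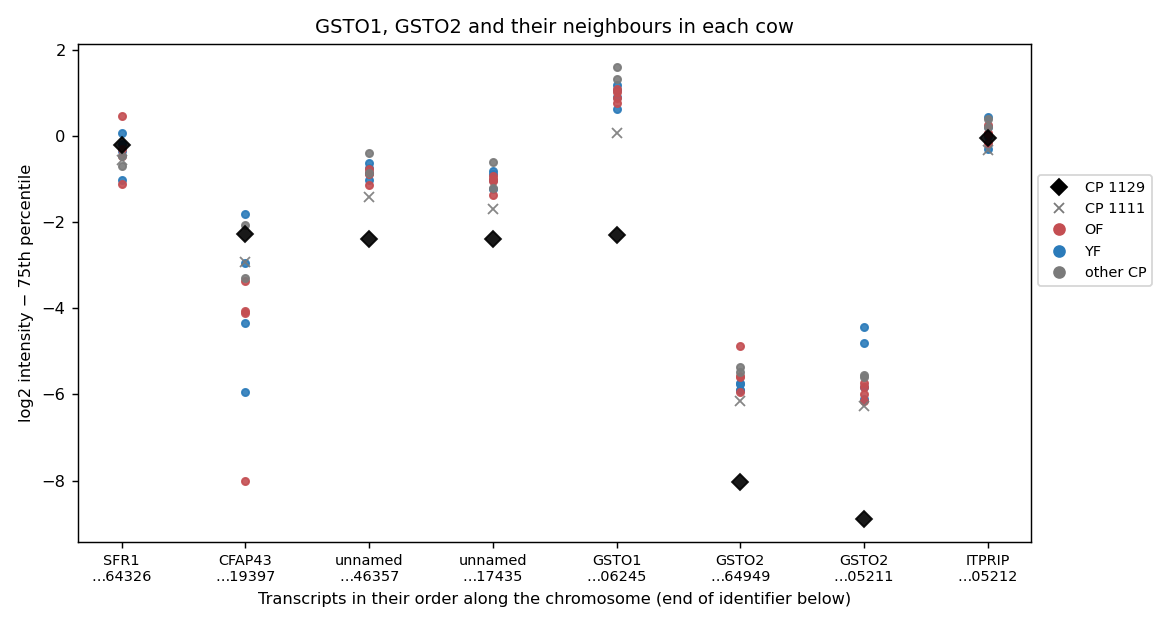
Level (y axis, log2 intensity minus the 75th percentile) of GSTO1, GSTO2 and the transcripts beside them in their order along the chromosome (x axis), 1 point for each of 12 cows. CP 1129 (black diamond) is lowest for GSTO1, both GSTO2 transcripts and the 2 unnamed transcripts, and cow 1111 (cross) is the next lowest there.

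Variation between cows was wide for these enzymes. Over all 12 cows the 49 transcripts well above background on every array had a median range of 1.39, from 0.34 to 4.95, against 1.08 for 18739 transcripts of the array. OF 2258 had the lowest level for 13 of the 49. This cow stood apart over the whole array: it was at least 2 below all other cows in 216 of 19045 transcripts, more than any other cow. The share of all transcripts that were lowest in OF 2258 was not counted. GSR was at -3.80 in CP 1068 against -2.93 or above in the other cows, and PRDX1 at 1.47 in the same cow against 2.33 to 3.17.

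**Figure D5:**
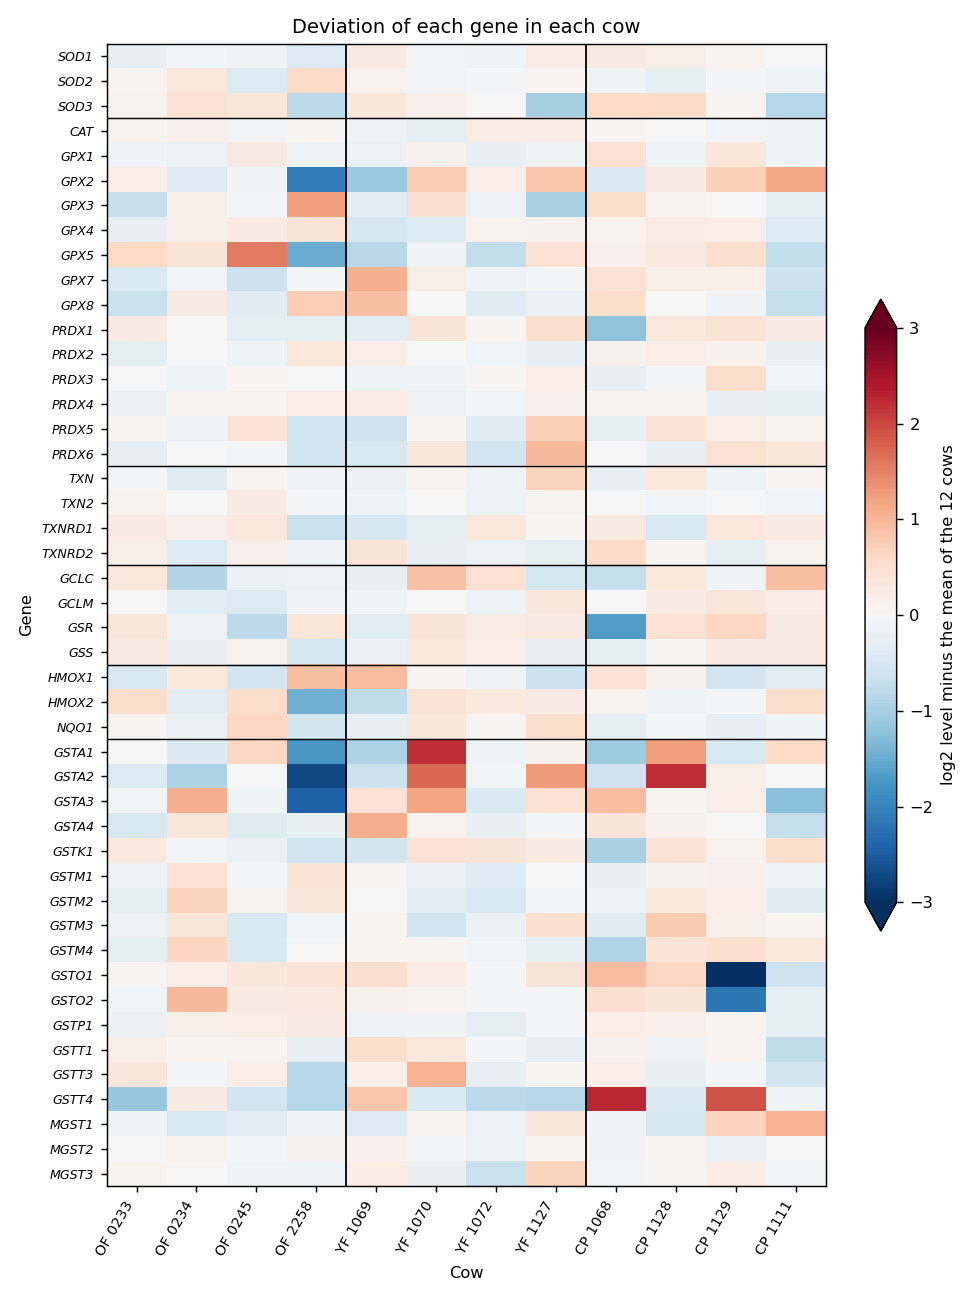
Deviation of each gene (y axis, grouped by enzyme role) from its mean over the 12 cows (x axis, OF, YF and CP), on the log2 scale in colour from blue (lower) to red (higher). The strongest blue cells are GSTA2, GSTA3 and GPX2 in OF 2258 and GSTO1 and GSTO2 in CP 1129.

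Genes related to these enzymes were counted in the same way. Of 27 tested regulators and targets of NRF2, the transcription factor that controls many of these enzymes, 0 passed an unadjusted p of 0.05 in limma between OF and YF, with a median of 0.01. Among 19 genes that produce reactive oxygen 0 passed, with a median of 0.08, and among 18 genes of selenoproteins and selenium handling 0 passed, with a median of -0.09. Of 34 other thiol and glutathione genes 2 were higher and 1 was lower at that p. Among all 19755 transcripts tested between OF and YF, 2.42% passed it. GGT1, which splits extracellular glutathione, was higher by 0.997 in OF (unadjusted limma p = 0.04, exact permutation p = 0.0857), and CBS, which feeds sulphur towards cysteine, by 0.37 (unadjusted limma p = 0.0429, exact permutation p = 0.0571); both overlapped between the groups.

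HPGDS, a glutathione-dependent prostaglandin D synthase of the sigma class, was the gene that was lower. It was at -6.17, -6.97, -6.85 and -7.07 in OF 0233, 0234, 0245 and 2258, and at -5.33, -6.09, -5.94 and -5.87 in YF 1069, 1070, 1072 and 1127. These levels were low for this array. The lowest, -7.07 in OF 2258, was near the -7.22 of GSTA3 in that cow, and GSTA3 was well above background on 11 arrays only. For HPGDS every OF lay below every YF, but OF 0233 at -6.17 lay close to YF 1070 at -6.09. Groups that did not overlap were found for 1.53% of all transcripts. The difference was -0.96 (-1.52 to -0.40, unadjusted limma p = 0.00417, exact permutation p = 0.0286), and its adjusted p in limma was 0.999.

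Among the marker lists, TAGLN of smooth muscle was higher by 2.45 in OF (unadjusted limma p = 0.0438, exact permutation p = 0.0857) and CLDN5 of endothelium by 0.54 (unadjusted limma p = 0.0458, exact permutation p = 0.0857), and their groups overlapped. The median difference was 1.96 for 11 smooth muscle markers, 0.20 for 8 endothelial markers, -0.27 for 10 stromal fibroblast markers, -0.06 for 9 tested leukocyte and macrophage markers and 0.09 for 5 tested erythroid markers.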

How the data were processed

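Endometrial RNA of 12 cows was hybridised to 1-colour Agilent arrays, 1 cow per array, and the deposited scanner files (Agilent Feature Extraction 10.7.3.1, per the file headers) hold each spot's intensity as background-corrected and detrended by that software, with no normalization between arrays; other columns are 0 or 1 flags. After control spots and flagged outlier probes had been dropped, log2 was taken and each array's 75th percentile (intensity 968 to 1597) was subtracted, and probes were averaged per transcript. From 71.6 to 74.9% of probes were well above background and 0 were saturated; the number of arrays limits precision. A transcript was tested where 1 of its probes was well above background on every array of either group compared. Each pair of groups had its own limma fit (version 3.58.1, R 4.3.3), with Benjamini-Hochberg adjustment over all transcripts, and single genes with exact two-sided permutation tests (scipy 1.17.1). The p-values measure the spread between cows. The scripts were tested on simulated data. Alternatives were quantile normalization, normexp, median centring, the brightest probe, other filters, slide as a block, within-slide fits, array weights, 3 groups in 1 fit, FCROS, cow 1111 included and each cow left out. Genes were named for an unadjusted p of 0.05 or less, for groups that did not overlap between OF and YF, for being among the 5 largest differences either way in a comparison, or by function; the other enzymes in the text were added to complete their families. The members, the related gene lists and the markers were chosen with earlier results of these data known. Protein and promoter sequences of these genes were not analysed here.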

Additional observations from a re-analysis of the deposited data

Results flagged for a closer look

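Of 28 genes named by rule, 56 groups of 4 cows were examined for a cow standing apart from the rest, a check that chance meets in about 1 group in 20, and 2 did. GPX1 in OF 0245 was at 4.18 against 3.73 to 3.80 in the other OF. TXNRD1 in OF 2258 was at 1.97 against 2.78 to 2.94 in the other OF.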

How the results depend on the processing

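No paired analysis was possible because the cows of the groups share no replicate numbers. For OF against YF the 0 transcripts at an unadjusted p of 0.05 in limma became 1 with slide as a block (GPX7), 11 with array weights, under which 2175 of all 19755 passed, 5 within slide 1, with 1 OF and 2 YF and 1470 of all 19755 transcripts passing, and 4 by FCROS; leaving out 1 cow gave 0 to 2. For CP against YF the 0 became 1 with quantile normalization, 2 with normexp, 2 with the brightest probe, 1 with slide as a block, 1 with all 3 groups in 1 fit, 5 with array weights (1312 of all 19993) and 1 within slide 2; leaving out 1 cow gave 0 to 3. For CP against OF the 3 became 4 with quantile normalization, 1 with slide as a block and 7 with array weights (3252 of all 19914). The count was 1 within slide 2 and 2 with cow 1111 included, and leaving out 1 cow gave 1 to 3. The medians moved by less than their spread under every alternative run, except that leaving out 1 cow moved that of CP against OF between 0.039 and 0.19, the highest without CP 1068. With 1 cow left out, the medians ranged from -0.11 to 0.00 for OF against YF and from -0.01 to 0.11 for CP against YF. Array weights gave a median of 0.05 for OF against YF. Leaving out 1 cow gave -0.93 to 0.41 for GSTO2 between CP and YF and -1.44 to 0.52 for GSTO1 between CP and OF, the sign turning in both without CP 1129. The cause of the other shifts was not tested. With 3 or 4 cows per group, differences well below 1 on the log2 scale were not detectable for most genes.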

Other observations

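Cow 1111, which entered no mean, had levels of -0.75 for GPX7, 3.24 for SOD1, -2.84 for GCLM, -2.72 for GSTT4, 2.02 for CAT, -3.01 for GSTA2 and 0.06 for GSTO1. Its GPX7 level was as low as that of OF 0245, the lowest OF. With it among the CP, GPX7 differed from OF by 0.34 with an unadjusted limma p of 0.226.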
